A study of Mus musculus with 37 samples.

Results

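Expression of 8 transcription factor genes that specify and maintain macrophages (Spi1, Maf, Cebpa, Cebpb, Irf5, Irf8, Bhlhe40 and Bhlhe41) was followed in sorted mouse macrophages and fibroblasts. These genes, and the gene lists used below, were chosen by name with earlier results of these data known. All 8 genes were among the 11965 genes of the macrophage count table. The fibroblast table, with 14028 genes, held 7 of the 8 and did not list Bhlhe41. Of these, 7 in macrophages and 7 in fibroblasts passed the filter on low counts. Bone-marrow-derived macrophages of female BALB/c mice of 8 weeks, grown with medium conditioned by L929 cells, were sorted after 7 days of co-culture with fibroblasts of mesometrial fat, of lung or of the mammary fat pad, or were collected without fibroblasts at day 0 (4 libraries each). Fibroblasts came from female BALB/c mice of 8 weeks and were depleted of EpCAM- and CD45-bearing cells. They were sorted from co-cultures of fat (3 libraries), lung (3) and mammary (5) cells and from mono-cultures of fat (2), lung (3) and mammary (5) cells, all at day 7. Mammary and fat replicates each pooled 2 females. Live macrophages were taken as F4/80+ CD11b+ and live fibroblasts as negative for both, and RNA was sequenced in bulk from transcript 3′ ends. Because control macrophages had no 7-day culture of their own, co-culture and time in culture cannot be told apart in any comparison with day 0.

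PU.1, the product of Spi1, is an ETS-family factor that opens most enhancers of the myeloid lineage and is needed for macrophages to form. C/EBPα, encoded by Cebpa, drives the step from progenitors to granulocytes and monocytes, and C/EBPβ (Cebpb) takes part in inflammatory and arginase-type programmes. IRF8 binds with PU.1 and favours monocyte and dendritic cell fate, IRF5 acts below Toll-like receptors on inflammatory cytokine genes, c-MAF (Maf) supports the programme of tissue-resident macrophages and limits self-renewal, and BHLHE40 and BHLHE41 are basic helix-loop-helix repressors needed for the identity and renewal of alveolar macrophages.

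The members with calls in macrophages that held under every alternative run, in at least 1 comparison, were Cebpb, Irf8, Irf5 and Cebpa. The 250 bases upstream of their annotated starts are shown so that the genes can be located and compared; they are mouse RefSeq sequences of GRCm38.p6, read on the strand of the gene (the plus strand for all 4), for Cebpb at chr2:167688665-167688914, Cebpa at chr7:35119043-35119292, Irf8 at chr8:120736108-120736357 and Irf5 at chr6:29526375-29526624. Capitals mark a CCAAT box, here read on the opposite strand.
Cebpb: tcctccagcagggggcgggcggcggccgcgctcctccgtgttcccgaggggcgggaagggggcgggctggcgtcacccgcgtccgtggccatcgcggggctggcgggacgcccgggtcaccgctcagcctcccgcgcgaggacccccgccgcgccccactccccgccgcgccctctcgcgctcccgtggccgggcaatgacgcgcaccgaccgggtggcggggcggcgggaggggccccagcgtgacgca
Cebpa: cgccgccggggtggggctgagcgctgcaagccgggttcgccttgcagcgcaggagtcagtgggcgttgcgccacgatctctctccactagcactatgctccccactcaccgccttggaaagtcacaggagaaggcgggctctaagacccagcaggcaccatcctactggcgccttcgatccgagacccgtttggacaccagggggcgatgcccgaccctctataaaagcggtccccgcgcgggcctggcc
Irf8: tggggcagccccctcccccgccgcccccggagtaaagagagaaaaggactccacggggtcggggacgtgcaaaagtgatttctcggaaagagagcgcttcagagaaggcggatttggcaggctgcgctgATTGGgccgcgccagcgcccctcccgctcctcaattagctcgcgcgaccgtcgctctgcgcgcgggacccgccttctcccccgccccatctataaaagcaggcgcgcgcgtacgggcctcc
Irf5: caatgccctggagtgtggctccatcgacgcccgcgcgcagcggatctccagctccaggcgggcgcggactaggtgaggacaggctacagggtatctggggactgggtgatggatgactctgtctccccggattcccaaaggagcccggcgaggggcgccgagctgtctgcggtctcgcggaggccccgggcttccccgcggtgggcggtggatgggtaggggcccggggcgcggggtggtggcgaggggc
The 4 motifs searched on both strands were CACGTG, the E-box that BHLHE40 and BHLHE41 bind, GAGGAAG, a core of PU.1 sites, TTNNGCAA, joined C/EBP half-sites, and CCAAT. They occur in 6.02%, 10.6%, 9.56% and 33.8% of 32851 RefSeq promoter windows of the same length. None of the 4 was found in the windows of Cebpb, Cebpa and Irf5, and the Irf8 window held 1 CCAAT box starting at position -121, counted from the base before the start. A second annotated Irf8 start had none of them in its window. A motif match is a description of letters and no evidence of binding. The window of Bhlhe41 was also matched, and Spi1, Maf and Bhlhe40 had no entry in the promoter table.

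Several libraries stood apart from the rest of their groups. The first component of the deviations from group means, computed without the 8 genes, held 28.0% of this variance in macrophages and 42.7% in fibroblasts, with 15.3% and 10.5% on the second. On the mean log2(CPM + 0.5) (CPM being counts scaled to a common library total) of the 200 genes that led it, mammary macrophage libraries 3 and 4 reached 1.34 and 0.804, against a median of 3.54 over the 16 libraries. Among fibroblasts, mammary co-culture libraries 2 and 4 reached 0.883 and 0.207 and mammary mono-culture libraries 2 and 4 reached 3.58 and 3.28, against a median of 4.59. These 6 libraries lay more than 1 log2 unit below the median, and the leading genes of the component had a median GC content of 34.0% and 34.2% in the last 500 transcript bases, against 44.4% and 44.2% for all tested genes. The component was turned so that it rises with Maf, and only libraries low on it were marked. What set the libraries apart was not tested. Values without them are printed beside each mammary call or count that changed, and the other mammary calls of the members and of the named genes of the lists were the same without them. Library totals were 3040103 to 6223115 counts in macrophages and 3304605 to 7487355 in fibroblasts. All 16 macrophage markers, such as Lyz2 and Csf1r, were in the macrophage table, with summed levels of 48588 to 69844 CPM. Of dendritic cell markers 0 of 8 were listed there. Neutrophil markers (2 of 10 listed) summed to 32.3 to 50.8 CPM at day 0 and 7.27 to 37.3 CPM after co-culture. For T and B cell markers (3 of 10) the sums were 9.52 to 13.3 and 3.32 to 8.41 CPM. For endothelial markers (4 of 8) they were 76.8 to 93.8 and 55.0 to 111 CPM. The source of these transcripts was not tested. Fibroblast markers (14 of 16 listed) summed to 233 to 404 CPM in fat, 136 to 272 in lung and 411 to 538 in mammary co-cultured macrophages, against 7.24 to 18.8 CPM at day 0.

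Levels are given as CPM, scaled by edgeR's TMM factors. A change was called when its p from edgeR's quasi-likelihood test, adjusted by the Benjamini-Hochberg method over all genes tested, was under 0.05, and log2 fold changes are given with their standard errors (SE). Libraries are repetitions according to the labels, so p-values measure the spread between them, some of which may be technical. In bulk RNA, fewer cells expressing a gene and less RNA per cell cannot be told apart. The 3 comparisons with day 0 share the same 4 control libraries. Statements that groups do not overlap describe the printed values, and the share of all genes without overlap is not given here. Co-cultured macrophages are named by the organ of their partner cells, as fat, lung and mammary macrophages. Because reads come from 3′ ends, levels of different genes are not ranked against each other.

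After fat co-culture, 4 of the 7 tested members were higher than at day 0 (Cebpa, Cebpb, Irf8 and Bhlhe40) and 0 were lower. Over all 10295 genes tested, 15.8% were called higher and 14.4% lower in this comparison. After lung co-culture 2 members were higher (Cebpb and Irf8) and 1 was lower (Irf5), where 14.6% and 13.2% of all genes were called. After mammary co-culture the same number were higher, Cebpb and Irf8, and 1 was lower, Irf5, where 14.4% and 11.8% of all genes were called. The median log2 fold change of the members was 0.69 in fat, 0.25 in lung and 0.17 in mammary macrophages, and that of all genes lay within 0.04 of 0.

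**Figure D1:**
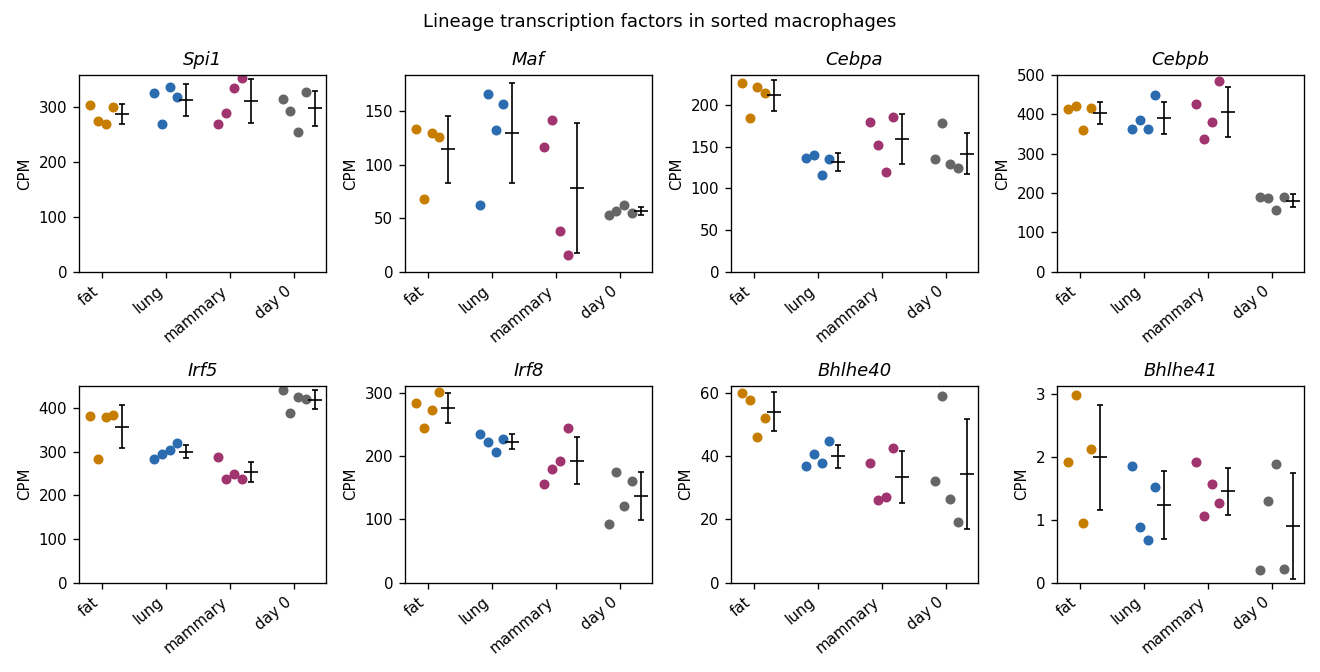
CPM (linear axes from 0) of the 8 genes in the 4 libraries of each macrophage group, with the mean and SD as bars. Every co-cultured library lies above every day-0 library for Cebpb, with 337 CPM as the lowest co-cultured value and 190.3 CPM as the highest at day 0.

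Spi1, the lineage-defining factor, did not pass the test in any comparison. Its level was 303.6, 274.2, 269.3 and 300.0 CPM in fat, 324.3, 269.4, 336.3 and 317.9 CPM in lung and 268.0, 287.8, 333.5 and 353.1 CPM in mammary macrophages (libraries 1 to 4), against 313.7, 292.7, 253.2 and 327.7 CPM at day 0. The 4 groups overlapped throughout. Log2 fold changes over day 0 were -0.05 ± 0.11 in fat, 0.07 ± 0.11 in lung and 0.07 ± 0.11 in mammary macrophages (adjusted p = 0.786, 0.685 and 0.722). The order of means was lung, mammary, day 0 and fat, and no neighbours in it differed beyond their spread. The 2 highest mammary values were those of the libraries that stand apart. Among 24 genes that depend on PU.1 in myeloid cells, 8 were higher and 0 lower after fat, 7 higher and 2 lower after lung and 5 higher and 2 lower after mammary co-culture (2 higher and 1 lower without the mammary libraries that stand apart). Itgam, the integrin CD11b used in the sort, averaged 1045 ± 127 CPM in fat macrophages and 651 ± 67 CPM at day 0, with a log2 fold change of 0.68 ± 0.11 (adjusted p = 7.12e-05). Coro1a, an actin regulator, fell to 418 CPM in lung macrophages, against 606 CPM at day 0 (adjusted p = 0.000789).

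Cebpb showed the largest called change of the 7 tested members against day 0 in each organ. It reached 413.2, 420.9, 360.6 and 417.5 CPM in fat, 362.4, 385.6, 364.0 and 449.1 CPM in lung and 426.0, 337.0, 379.8 and 484.4 CPM in mammary macrophages, against 190.3, 188.2, 156.8 and 188.8 CPM at day 0. No co-cultured library overlapped day 0. The level was 2.23-fold (fat), 2.16-fold (lung) and 2.25-fold (mammary) that of day 0, with log2 fold changes of 1.16 ± 0.12, 1.11 ± 0.12 and 1.17 ± 0.12 and adjusted p of 3.66e-07, 7.37e-07 and 3.74e-07. The means of the 3 co-cultures were 407 ± 63 CPM (mammary), 403 ± 28 CPM (fat) and 390.3 ± 40.6 CPM (lung), and these neighbours did not differ beyond their spread (log2 differences between organs of -0.06 to 0.05, adjusted p of 0.846 or more). Cebpb (chromosome 2, 167688915 to 167690418 of GRCm38) lies inside the span of Tmem189 on the opposite strand. Tmem189 was also called, with log2 fold changes of 0.40, 0.58 and 0.38. Whether strand was used in counting is not given in the sources used here, so reads of the pair at their shared span cannot be told apart.

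Cebpa was higher in fat macrophages than at day 0, and did not pass in lung or mammary. It measured 226.1, 184.1, 221.2 and 214.9 CPM in fat, 135.8, 139.9, 115.9 and 134.7 CPM in lung and 179.5, 151.5, 120.2 and 185.7 CPM in mammary macrophages, against 135.2, 178.4, 129.4 and 124.0 CPM at day 0. All 4 fat libraries lay above all lung and day-0 libraries, whereas lung and mammary values overlapped day 0. The log2 fold change over day 0 was 0.58 ± 0.14 in fat (1.495-fold, adjusted p = 0.00321), -0.10 ± 0.14 in lung (adjusted p = 0.623) and 0.17 ± 0.14 in mammary macrophages (adjusted p = 0.398). The direct test of fat against lung gave a log2 difference of 0.69 ± 0.14 (1.61-fold, adjusted p = 0.00572), while fat against mammary gave 0.41 ± 0.14 (adjusted p = 0.144) and lung against mammary -0.28 ± 0.14 (adjusted p = 0.311). Of the 7 members, 1 was higher in fat than in lung, where 2.06% of all genes were called higher and 1.04% lower. In the order fat, mammary, day 0 and lung, fat and lung were the 1 pair of organs that differed beyond the spread.

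The balance of the C/EBP pair was compared within libraries, as log2 of the Cebpb level over the Cebpa level. It averaged 0.93 ± 0.20 in fat, 1.56 ± 0.15 in lung and 1.36 ± 0.22 in mammary macrophages, against 0.36 ± 0.23 at day 0 (SD, n = 4 each). No co-cultured library overlapped day 0, and lung and fat libraries did not overlap each other. Mammary libraries 1 and 2, which do not stand apart, had 1.24 and 1.15. Each of these differences had p = 0.0286 in an exact two-sided permutation test, the smallest that 4 against 4 libraries allow, and after adjustment over 24 such tests the value was 0.0980, above the threshold. Among 5 relatives tested, Cebpd, an acute-phase factor, was higher after all 3 co-cultures (log2 1.59, 1.59 and 1.81 in fat, lung and mammary), while Cebpe, a factor of late granulocyte maturation, fell by 0.72 in fat and 0.75 in lung on the log2 scale. Cebpg was higher in fat (log2 0.79) and Ddit3, a stress-induced partner that inhibits other C/EBP proteins, fell by 0.70 in mammary macrophages. Of 13 listed C/EBPβ-associated inflammatory genes, 6 passed the filter on low counts. All 6 were higher after each co-culture (median log2 fold change 4.52 in fat, 4.41 in lung and 4.93 in mammary). A gene near the floor at day 0 can pass the filter only through the co-cultured libraries where it is high. The count of 6 higher is therefore partly set by the filter. Thbs1, an adhesive glycoprotein, averaged 39.2, 15.5 and 46.2 CPM in fat, lung and mammary macrophages, against 1.76 CPM at day 0. Its lung level was below that of both other organs (adjusted p = 1.53e-05 for fat over lung and 1.33e-06 for lung over mammary). Genes of this list such as Thbs1 are known to be made by fibroblasts too, and the summed fibroblast markers given above moved with co-culture too; their part in the list's change was not tested.

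Irf8 and Irf5, members of one family, moved in opposite directions in lung and mammary macrophages. Irf8 reached 284.9, 244.9, 273.8 and 301.7 CPM in fat, 235.0, 223.2, 207.7 and 227.8 CPM in lung and 156.7, 179.2, 192.1 and 244.9 CPM in mammary macrophages, against 92.5, 174.5, 121.0 and 160.4 CPM at day 0. Fat and lung libraries all lay above day 0, and mammary library 1 fell within the range of day 0. The level was 2.02-fold that of day 0 in fat, 1.63-fold in lung and 1.41-fold in mammary macrophages (log2 1.01 ± 0.16, 0.71 ± 0.16 and 0.50 ± 0.16, adjusted p = 8.06e-05, 0.00262 and 0.0283). The mammary call rested on single libraries: the adjusted p was 0.107 without day-0 library 1, 0.0861 without day-0 library 3 and 0.127 when mammary library 4 was left out. Without mammary libraries 3 and 4, which stand apart, the log2 fold change was 0.30 with an adjusted p of 0.272, and in the fit of the 2 groups alone the adjusted p was 0.0966. The order of means was fat (276 CPM), lung (223), mammary (193) and day 0 (137). Neighbouring organs did not pass the test (fat over lung, log2 0.31, adjusted p = 0.493; lung over mammary, log2 0.21, adjusted p = 0.553). Fat over mammary gave 0.52 ± 0.16 (adjusted p = 0.106), and 0.66 with an adjusted p of 0.0360 without mammary library 4.

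Irf5 was lower in lung and mammary macrophages than at day 0, with mean levels in the order day 0, fat, lung and mammary. It measured 382.0, 282.7, 378.4 and 383.5 CPM in fat, 282.3, 295.2, 302.9 and 319.9 CPM in lung and 286.6, 237.3, 248.4 and 237.8 CPM in mammary macrophages, against 440.1, 387.7, 425.0 and 420.8 CPM at day 0. Every co-cultured library was below every day-0 library, the closest being fat library 4 at 383.5 CPM. Lung fell to 0.717 of the day-0 level (log2 -0.48 ± 0.11, adjusted p = 0.00225) and mammary to 0.603 (log2 -0.73 ± 0.11, adjusted p = 3.63e-05), whereas fat, at 0.852, did not pass (log2 -0.23 ± 0.11, adjusted p = 0.116). Fat exceeded mammary by 0.50 ± 0.11 on the log2 scale (1.41-fold, adjusted p = 0.0147). Irf5 was the 1 member called in that comparison, where 1.67% of all genes were called higher and 1.05% lower. That call was lost without fat library 1, 3 or 4 (adjusted p = 0.0572, 0.0543 and 0.0584), in the fit of the 2 groups alone (adjusted p = 0.0517) and without the mammary libraries that stand apart (log2 0.45, adjusted p = 0.167). Lung against mammary called 0 members by edgeR (2.45% of all genes were higher and 3.15% lower). There 1 member had an unadjusted p under 0.05, Irf5 with a log2 difference of 0.25 ± 0.11 and an adjusted p of 0.222, and DESeq2 called 0. The 3′ end of Irf5 (chromosome 6, 29526625 to 29541871) overlaps Tnpo3 on the other strand, whose log2 fold changes of -0.15, -0.16 and -0.04 were not called.

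The log2 of Irf8 over Irf5 averaged -0.36 ± 0.11 in fat, -0.42 ± 0.12 in lung and -0.40 ± 0.37 in mammary macrophages, against -1.65 ± 0.48 at day 0 (SD, n = 4 each). Mammary libraries 1 and 2 had -0.87 and -0.40, and the highest day-0 value was -1.15. Co-cultured and day-0 libraries did not overlap (exact two-sided permutation p = 0.0286 for each organ, 0.0980 after adjustment over the 24 tests). Of 6 other IRF genes tested, 0 were higher in any organ, and 2 were lower in fat, 3 in lung and 3 in mammary macrophages (4 without libraries 3 and 4). Irf7, an amplifier of type I interferon, fell to 159, 128 and 207 CPM in fat, lung and mammary macrophages, against 669.5 CPM at day 0. Irf4, which favours alternative activation, fell to 1.88, 2.78 and 1.19 CPM, against 10.96 CPM. Interferon-stimulated genes were lower as a group, with 14, 15 and 14 of 18 called lower in fat, lung and mammary macrophages and 0 higher (median log2 fold change -1.72, -2.04 and -1.42), and without mammary libraries 3 and 4 the mammary count was 13. Of 10 genes associated with IRF5 or IRF8, 0 were higher and 4 lower in fat, 2 higher and 7 lower in lung, and 2 higher and 4 lower in mammary macrophages (1 higher and 4 lower of 12 tested without libraries 3 and 4). Cxcl10, a T-cell-attracting chemokine, fell to 12.3, 4.47 and 23.6 CPM, against 66.4 CPM at day 0. Tnf, an inflammatory cytokine, was higher in mammary macrophages (144 ± 25 CPM, against 94.8 CPM at day 0, log2 0.59 ± 0.21, adjusted p = 0.0484), and mammary exceeded lung (49.7 CPM, adjusted p = 0.000295) and fat (57.2 CPM, adjusted p = 0.00206).

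**Figure D2:**
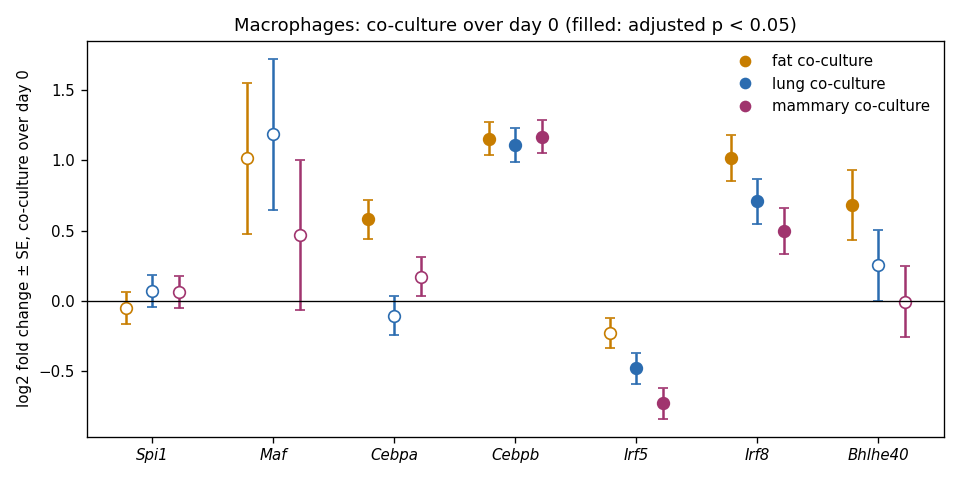
Log2 fold change over day 0 (points) with its SE (bars) for the 7 tested genes in macrophages after fat, lung and mammary co-culture; filled points passed the adjusted threshold of 0.05. Cebpb lies between 1.11 and 1.17 in the 3 organs, while the bars of Maf are the widest, with an SE of 0.54.

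Maf had the largest SE of the tested members. It reached 134.0, 68.1, 130.2 and 126.2 CPM in fat, 62.6, 166.0, 132.7 and 156.6 CPM in lung and 117.0, 142.4, 38.4 and 15.5 CPM in mammary macrophages, against 52.9, 56.6, 62.3 and 55.3 CPM at day 0. All fat and lung libraries lay above day 0, lung library 1 by the smallest margin, while mammary libraries 3 and 4 lay below it. Log2 fold changes were 1.01 ± 0.54, 1.19 ± 0.54 and 0.47 ± 0.54 in fat, lung and mammary macrophages, and none passed the test (adjusted p = 0.180, 0.122 and 0.573). In fits of each pair of groups alone, where the spread of the mammary libraries does not enter, Maf passed in fat (adjusted p = 0.000504) and lung (adjusted p = 0.00234).

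The lowest Maf values were those of libraries that stand apart. The component had been turned so that it rises with Maf, and its 200 leading genes were taken at that end. That low scores go with low rather than high Maf was therefore fixed beforehand and is no independent result. Mammary libraries 3 and 4, which had the lowest levels of the component genes, also had the lowest Maf values, and fat library 2 and lung library 1 were the lowest of their groups on both measures. Without mammary libraries 3 and 4 the mammary log2 fold change of Maf was 1.20 (adjusted p = 0.0119). With the component as a covariate it was 0.53 in fat, 0.83 in lung and 0.85 in mammary macrophages (adjusted p = 0.0202, 0.000573 and 0.000881). Both alternatives were chosen after the data were seen, and since Maf varies with the component, leaving out those libraries also leaves out the lowest Maf values. Igf1, a growth factor named here after its values were seen, was likewise low there, at 51.5, 68.0, 14.7 and 8.31 CPM in mammary libraries 1 to 4, against 44.4, 69.3, 63.3 and 43.3 CPM at day 0.

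**Figure D3:**
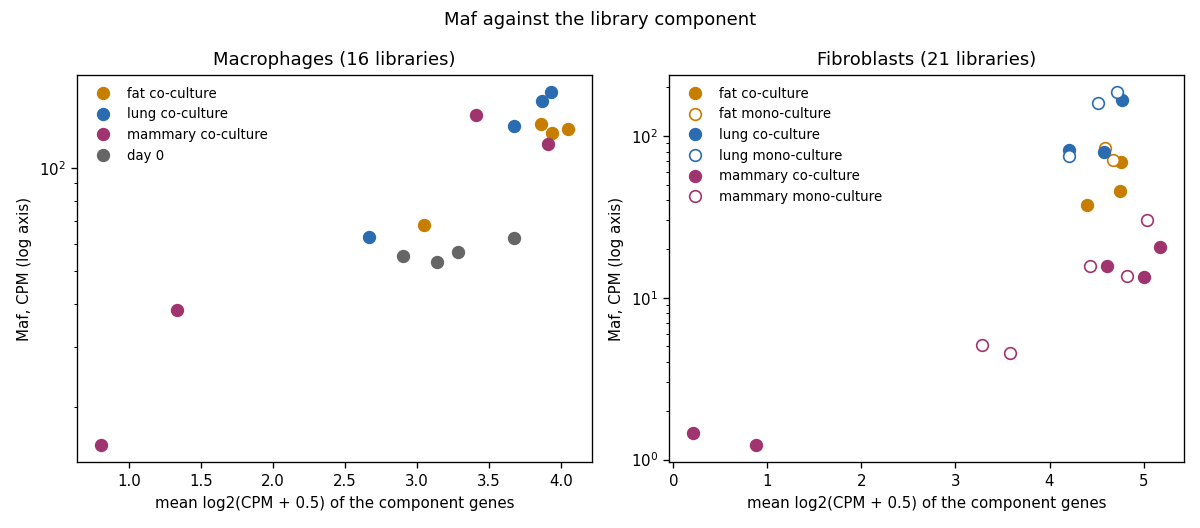
Maf in CPM (log axis) against the mean log2(CPM + 0.5) of the genes that lead the library component, in 16 macrophage libraries (left) and 21 fibroblast libraries (right), coloured by organ and open for mono-cultures. Mammary libraries with component levels of 1.34 and less hold the lowest Maf values of their tables. The component was turned so that it rises with Maf.

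Mafk, a small MAF protein, was lower in mammary macrophages than at day 0 (log2 -0.77, adjusted p = 0.0177). Of 16 tested genes associated with c-MAF in macrophages, 13 were higher in each organ, with 1 lower in fat, 0 in lung and 1 in mammary macrophages (median log2 fold change 1.21, 1.82 and 1.36). Over all genes tested, 15.8%, 14.6% and 14.4% were called higher in fat, lung and mammary macrophages. Ccl8, a gene of this list at 0 to 0.966 CPM at day 0, could pass the filter only through co-cultured libraries. The count of 13 higher is therefore partly set by the filter. C1qb, a subunit of complement C1q, averaged 3776, 3451 and 4013 CPM in fat, lung and mammary macrophages, against 451 CPM at day 0. Folr2, a folate receptor of resident macrophages, fell to 246 CPM in fat and 309 CPM in mammary macrophages, against 466.1 CPM at day 0. Mrc1, the mannose receptor, was lower in fat (336 ± 31 CPM) than in lung (751 ± 57 CPM, log2 -1.16, adjusted p = 0.000154) and mammary macrophages (623 CPM, log2 -0.89, adjusted p = 0.00372).

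Bhlhe40 was higher in fat macrophages than at day 0, close to the threshold. It measured 60.0, 57.8, 46.2 and 52.1 CPM in fat, 36.8, 40.6, 37.7 and 45.0 CPM in lung and 37.8, 26.1, 27.0 and 42.6 CPM in mammary macrophages, against 32.1, 59.2, 26.6 and 19.3 CPM at day 0. Day-0 library 2 lay within the range of the fat libraries, which were all above lung and mammary. The log2 fold change over day 0 was 0.69 ± 0.25 in fat (1.61-fold, adjusted p = 0.0464), 0.25 ± 0.25 in lung (adjusted p = 0.503) and -0.01 ± 0.25 in mammary macrophages (adjusted p = 0.989). The fat call was lost without any 1 of day-0 libraries 1, 3 and 4 or of the 4 fat libraries (adjusted p of 0.0529 to 0.130), with the replicate block (adjusted p = 0.05003) and in the fit of the 2 groups alone (adjusted p = 0.0722). Without day-0 library 2 the lung difference was called as well (log2 0.62, adjusted p = 0.0176). Fat against lung (log2 0.43, adjusted p = 0.549) and fat against mammary (log2 0.69, adjusted p = 0.179) did not pass, though fat against mammary was called in the fit of those 2 groups alone (log2 0.70, adjusted p = 0.0485).

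Bhlhe41 was near the limit of detection in every group. It was counted 1 to 13 times per library, which corresponded to 1.91, 2.98, 0.948 and 2.12 CPM in fat, 1.85, 0.889, 0.682 and 1.52 CPM in lung and 1.91, 1.052, 1.56 and 1.26 CPM in mammary macrophages, against 0.193, 1.30, 1.88 and 0.207 CPM at day 0. The groups overlapped, and a difference was not detectable at this depth. With no filter on low counts, edgeR gave log2 fold changes of 1.20 in fat, 0.56 in lung and 0.74 in mammary macrophages (adjusted p = 0.106, 0.523 and 0.363). Alveolar macrophage genes, a programme in which BHLHE41 acts, were lower for 4 of 7 tested genes in fat and mammary co-culture and for 5 of 7 in lung, where 2 were higher. Fabp5, a fatty acid-binding protein of alveolar macrophages, averaged 1281 CPM in lung macrophages and 581 CPM at day 0 (log2 1.14, adjusted p = 0.00143), and exceeded mammary co-culture (702 CPM, adjusted p = 0.0372), a call that was lost without the mammary libraries that stand apart (log2 0.72, adjusted p = 0.241). Pparg, the factor that drives alveolar macrophage differentiation, fell to 5.66 CPM in lung macrophages, against 29.0 CPM at day 0.

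Genes whose course over the 16 macrophage libraries was most like that of a called member were ranked by the root mean square difference of log2 levels relative to the day-0 mean, among 5581 genes. For Cebpb these were Mrgpre, Gramd1b and Jdp2 (0.171, 0.176 and 0.188, against a median of 1.05 over the pool). For Irf8 they were Pisd-ps1, a pseudogene whose reads may be shared with its parent, Pde1b and Il10ra (0.183, 0.209 and 0.211, median 0.790). For Irf5 they were Utp6, Hmces and Cers6 (0.153, 0.156 and 0.172, median 0.518), and for Cebpa they were Pbxip1, Irak2 and Arhgap22 (0.149, 0.170 and 0.177, median 0.479). Bhlhe40 had no gene as close, the nearest being Gadd45a, Csf2rb and Irak2 at 0.286, 0.304 and 0.316 (median 0.627).

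The contribution of fibroblast RNA to the macrophage levels was estimated from 14 fibroblast markers, relative to their level in the co-cultured fibroblasts. The share was 1.29% ± 0.36 in fat, 0.759% ± 0.301 in lung and 0.896% ± 0.056 in mammary macrophages (SD, n = 4 each). At these shares at most 3.10% of the level of any of the 7 members listed in both tables would come from fibroblasts, the highest being Cebpb, and after subtraction the calls of these 7 against day 0 and between organs were the same.

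In fibroblasts the 7 listed members differed in what their levels resembled. Cebpb and Bhlhe40 were as high as in macrophages or higher, Maf varied with the organ, and Spi1 and Irf8 were low. The tables were filtered separately, so levels across cell types are set side by side as CPM only. Relative to the co-cultured macrophages of the same organ, fibroblast Cebpb stood at 117% to 191% and Bhlhe40 at 103% to 316% (group means), Maf at 13.4% to 108%, Cebpa at 6.95% to 26.6% and Irf5 at 2.26% to 14.7%. After co-culture 0 of 7 members were called in fat fibroblasts, where 0.0403% of all 12421 genes were higher and 0.161% lower. In lung fibroblasts 0 of 7 were called, where 1.17% were higher and 0.145% lower. On simulated counts for fat fibroblasts 22.4% of genes changed 2-fold were recovered, so most changes of that size would be missed there. There were 3 members with an unadjusted p under 0.05 in fat and 2 in lung, and DESeq2 called 0 in fat and 2 in lung. In mammary fibroblasts 2 members were higher (Spi1 and Irf8) and 1 was lower (Bhlhe40), where 2.36% and 1.29% of all genes were called.

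**Figure D4:**
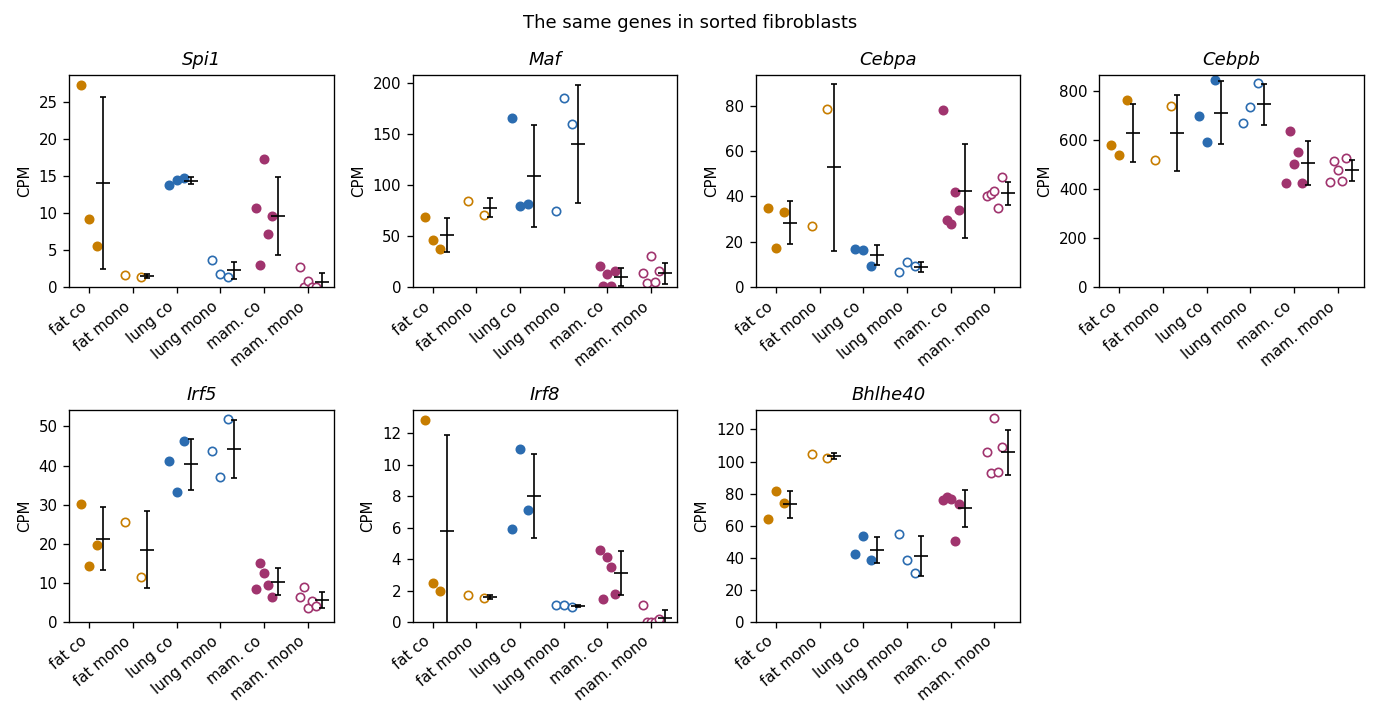
CPM (linear axes from 0) of the 7 genes listed in the fibroblast table, in co-cultures (filled) and mono-cultures (open) of fat, lung and mammary (mam.) fibroblasts, with the mean and SD as bars. In mammary cells every Bhlhe40 value of the co-cultures, at most 78.1 CPM, lies below every mono-culture value, at least 92.8 CPM.

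Spi1, the macrophage-defining member, was low in fibroblasts, with every co-culture value above every mono-culture value of its organ. It measured 27.3, 9.28 and 5.56 CPM in fat co-cultures and 1.71 and 1.34 CPM in fat mono-cultures. In lung it measured 13.9, 14.4 and 14.8 CPM in co-cultures and 3.63, 1.85 and 1.36 CPM in mono-cultures. In mammary fibroblasts it measured 10.7, 2.97, 17.3, 7.26 and 9.67 CPM in co-cultures and 2.69, 0, 0.870, 0 and 0 CPM in mono-cultures, where 3 libraries had no count. The log2 fold change was 3.70 ± 0.75 in mammary (adjusted p = 0.00914), 2.65 ± 0.82 in lung (adjusted p = 0.150) and 3.17 ± 1.00 in fat cells (adjusted p = 0.234); with libraries at 0, the size of the mammary value depends on the prior count of the fit, and without mono-culture library 1 it was 5.28. Irf8 measured 12.8, 2.49 and 2.00 CPM in fat, 5.91, 11.01 and 7.14 CPM in lung and 4.57, 1.48, 4.17, 3.49 and 1.81 CPM in mammary co-cultures. In mono-cultures it measured 1.71 and 1.54 CPM in fat, 1.07, 1.11 and 0.971 CPM in lung and 1.12, 0, 0, 0 and 0.226 CPM in mammary cells. Irf8 too did not overlap between the cultures of any organ. It passed in mammary cells (log2 3.44 ± 0.76, adjusted p = 0.0164, and log2 5.28 without mono-culture library 1). It did not pass in lung (2.90 ± 0.76, adjusted p = 0.0704) or fat (1.79 ± 0.83, adjusted p = 0.487). With the few libraries of fat and lung, full separation of 1 gene can readily arise by chance. Without the 4 mammary libraries that stand apart, Spi1 kept its call (log2 3.39, adjusted p = 0.0324) and Irf8 lost it (log2 2.97, adjusted p = 0.116). In the fit of the 2 mammary groups alone Spi1 lost its call as well (log2 3.70, adjusted p = 0.0877) and Irf8 was below the filter. Same-numbered mammary libraries deviated together. With the number as a block over the whole table, which also ties same-numbered fat and lung libraries, Spi1 and Irf8 still passed (adjusted p = 0.0103 and 0.0237). With the block in mammary libraries alone Spi1 passed, while Irf8 was below the filter and could not be tested.

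Transcripts of macrophages moved with these changes. The summed level of 15 macrophage markers, all above 0 in at least 1 library of every group, was 513 to 2965 CPM in fat, 1641 to 2577 CPM in lung and 644 to 1947 CPM in mammary co-cultures, against 316 to 403, 389 to 745 and 34.8 to 592 CPM in the mono-cultures of the same organs. Relative to co-cultured macrophages, the markers had a median of 2.03%, 3.13% and 1.37% in fat, lung and mammary co-cultures, against 0.492%, 0.413% and 0.166% in mono-cultures. Irf8 stood at 2.09%, 3.59% and 1.61% in co-cultures, against 0.587%, 0.470% and 0.139% in mono-cultures. Spi1 stood at 4.90%, 4.61% and 3.09% in co-cultures, against 0.532%, 0.731% and 0.229% in mono-cultures. Spi1 lay above the marker median in every co-cultured library, for instance at 9.52% against 4.00% in fat library 1 and 5.57% against 2.34% in mammary library 3. Single markers gave 0.869% to 12.1% as group means in co-cultures, so that Spi1 lay within their range in lung and fat and just above it in mammary cells (highest marker 3.02%). The part of these transcripts in the higher levels of Spi1 and Irf8 was not tested.

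**Figure D5:**
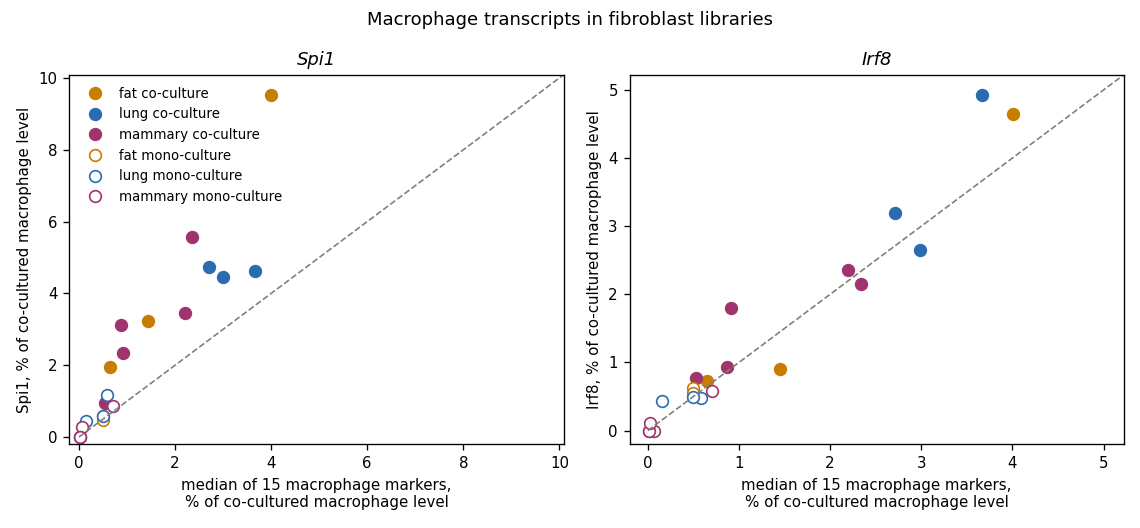
Level of Spi1 (left) and Irf8 (right) in 21 fibroblast libraries against the median of 15 macrophage markers, each as a percentage of its mean level in macrophages of the same co-culture; filled points are co-cultures, open points mono-cultures, and the dashed line marks equal percentages. Spi1 lies above the line in the co-cultures, up to 9.52% against 4.00%, while Irf8 scatters around it.

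Bhlhe40 fell in co-cultured mammary fibroblasts. It measured 76.1, 78.1, 76.6, 50.6 and 73.7 CPM in co-cultures and 106.1, 92.8, 127.4, 93.3 and 108.8 CPM in mono-cultures, with no overlap (log2 -0.57 ± 0.16, adjusted p = 0.0476). The call was close to the threshold: it was lost without any 1 of the 10 libraries (adjusted p of 0.0598 to 0.119) and without the libraries that stand apart (log2 -0.57, adjusted p = 0.155). With the replicate block over the whole table the adjusted p was 0.0503, and with the block in mammary libraries alone it was 0.0400. In fat cells Bhlhe40 measured 64.5, 81.5 and 74.1 CPM in co-cultures and 104.8 and 102.3 CPM in mono-cultures (log2 -0.50 ± 0.22, adjusted p = 0.461). In lung cells it measured 42.3, 53.8 and 38.7 CPM in co-cultures and 54.7, 38.4 and 30.5 CPM in mono-cultures, and the cultures overlapped. In the interaction test of whether the response differed between organs, 0 of 7 members passed, and 0%, 0.0242% and 0.0966% of all genes were called in fat against lung, fat against mammary and lung against mammary. At an unadjusted p under 0.05 there were 1 (Cebpa), 0 and 2 (Irf5 and Bhlhe40) members.

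Cebpb in fibroblasts measured 582, 540 and 764 CPM in fat, 699, 590.4 and 845 CPM in lung and 424, 636, 504, 551 and 424 CPM in mammary co-cultures. Mono-cultures measured 519.6 and 739.7 CPM in fat, 669, 733 and 833 CPM in lung and 430.1, 514.5, 478, 432.4 and 525.9 CPM in mammary cells. Co-cultures and mono-cultures overlapped in each organ, and none of the differences passed (log2 -0.00 in fat, -0.07 in lung and 0.09 in mammary cells). Maf in fibroblasts was highest in lung, at 166.0, 79.2 and 81.4 CPM in co-cultures and 74.8, 185.6 and 159.9 CPM in mono-cultures. Fat cells had 69.3, 46.0 and 37.4 CPM in co-cultures and 84.6 and 71.2 CPM in mono-cultures, and mammary cells 20.5, 1.24, 13.5, 1.45 and 15.7 CPM in co-cultures and 13.7, 4.55, 30.2, 5.10 and 15.8 CPM in mono-cultures. The lowest mammary values, in libraries 2 and 4 of both cultures, were those of the libraries that stand apart. Because the component was turned to rise with Maf here too, that these values are low rather than high was fixed beforehand. Maf passed no test in fibroblasts. Every mammary value of Maf lay below every fat and lung value; organs of origin were not compared by a test.

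Cebpa and Irf5 completed the set in fibroblasts. Cebpa, which also drives fat cell differentiation, averaged 28.5 ± 9.6 CPM in fat co-cultures and 52.8 ± 36.7 CPM in fat mono-cultures, 14.2 ± 4.3 and 9.14 ± 2.22 CPM in lung co-cultures and mono-cultures, and 42.4 ± 20.6 and 41.3 ± 5.0 CPM in mammary co-cultures and mono-cultures. Irf5 averaged 21.4 ± 8.1 and 18.5 ± 9.9 CPM in fat, 40.3 ± 6.6 and 44.2 ± 7.4 CPM in lung and 10.4 ± 3.5 and 5.70 ± 2.10 CPM in mammary co-cultures and mono-cultures (SD). Neither gene passed the test in any organ; the nearest was Irf5 in mammary cells (log2 0.85 ± 0.30, adjusted p = 0.139).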

How the data were processed

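RNA of 16 macrophage and 21 fibroblast libraries was sequenced from 3′ ends after bead capture of polyadenylated RNA, per the labels' protocols. Per the submitters' processing notes, bcl2fastq, STAR 2.4.2a, HTSeq and the build mm10 were used; how strand, annotation and molecular identifiers were handled is not given in those notes. The authors deposited raw counts per gene, 1 table per cell type, in which every gene reaches 6 counts in at least 1 library. The deposited normalised signal, equal to counts divided by 1 factor per library, was not used here. Columns were tied to samples by title, and 0 columns were left over. Lung mono-culture replicate 3 is labelled lung in its title and mammary fat pad in its tissue label; it was grouped by title. Pairs of libraries within a group differed beyond counting noise (chi-square over its degrees of freedom, 3.47 to 72.2), so none was merged.

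Counts were fitted per table in edgeR 4.0.16 (R 4.3.3) with TMM scaling, filterByExpr (minimum count 10) and the robust quasi-likelihood F-test, with 1 coefficient per group; 10295 macrophage and 12421 fibroblast genes were tested, with biological coefficients of variation of 16.9% and 29.1%. The SE is the size of the log2 fold change divided by the square root of F. Ratios of paired genes, on log2(CPM + 0.5), were compared with exact permutation tests in scipy 1.17.1. DESeq2 1.42.0, RLE scaling, no filter, 2-group fits, a replicate block, subtraction of fibroblast RNA and leaving out each replicate were alternatives. Those on the libraries that stand apart, the component covariate and the block within mammary libraries were added after seeing the data. The component is the first principal component of log2(CPM + 0.5) deviations from group means, with its sign set to correlate positively with Maf. It was scored on the 200 genes that led it in that direction. On simulated counts for lung co-culture against day 0 (9840 genes), 80.6% of genes changed 2-fold and 48.5% of those changed 1.5-fold were recovered. For mammary fibroblasts (11321 genes) the values were 62.7% and 25.7%, and for fat fibroblasts (11832 genes) 22.4% and 0%. For fat against lung macrophages (10039 genes) they were 79.1% and 38.9%.

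The 8 genes and all gene lists were chosen with earlier results of these data known. Besides the 8 genes, the text draws on genes selected per list and comparison (up to 2 called higher and 2 lower by smallest adjusted p, plus the most abundant uncalled one, with the called genes of the organ pairs) and on the 3 genes most like each called member. In mammary fibroblasts all 5 same-numbered pairs had correlated deviations from the group means (r of 0.293 to 0.555). Co-culture library 1 correlated best with mono-culture library 3. In lung fibroblasts each co-culture library correlated best with the mono-culture library of its number (r of 0.043, 0.340 and 0.317). Same-numbered macrophage libraries had r of -0.358 to 0.286. The reported fits used no pairing. Gene positions come from GENCODE on GRCm38 and upstream sequences from RefSeq (GRCm38.p6). A count of 3 corresponds to 0.975 CPM in the shallowest macrophage library after TMM scaling, and covers counting error only.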

Additional observations from a re-analysis of the deposited data

Results flagged for a closer look

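Within groups of 4 or 5 libraries, 46 sets of values were examined for a single value far from the others, and chance alone sets apart about 1 in 20 of such sets. In macrophages, Maf in fat library 2 was low at 68.1 CPM, with the next value at 126.2 CPM, and Irf5 was low in the same library at 282.7 CPM, with the next at 378.4 CPM. Cebpb was low in fat library 3, at 360.6 CPM against 413.2 CPM for the next, and in day-0 library 3, at 156.8 CPM against 188.2 CPM. In mammary fibroblasts, Cebpa was high in co-culture library 1 (77.9 CPM, next 42.1 CPM), and Bhlhe40 was low in co-culture library 4 (50.6 CPM, next 73.7 CPM), a library that stands apart. Irf8 was high in mammary mono-culture library 1 (1.12 CPM, next 0.226 CPM). For 2 genes the difference from day 0 itself differed between organs in a direct test: Cebpa between fat and lung (log2 difference 0.69) and Irf5 between fat and mammary co-culture (log2 difference 0.50). The Cebpa call held in all 15 alternatives, whereas the Irf5 call was lost in 6 of 16.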

How the results depend on the processing

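Among the alternative values of the counts of called members, the balance ratios and the fibroblast shares, 388 stayed on the same side of their threshold or within their spread and 18 did not. The 388 include all 264 alternative values of the balance ratios. Those judged by adjusted p had little room to cross the threshold, since 4 against 4 libraries allow no permutation p under 0.0286. The 18 therefore all fall among the called counts and the fibroblast shares. Among the fold changes of single members 875 kept their side of the threshold, 38 lost a call and 15 gained one; no called change turned its direction, while uncalled ones did, such as Maf in fat against mammary co-culture (log2 0.54 as reported, -0.17 without the libraries that stand apart). Cebpb in each organ, Irf8 in fat and lung, Irf5 in lung and mammary, and Cebpa in fat against day 0 and against lung kept their calls under every alternative run, and Cebpb stayed between 1.04 and 1.24 on the log2 scale. In fat against mammary co-culture the count of called members, 1 in the reported fit, was 0 to 2 when single replicates were left out, 0 without the libraries that stand apart and 0 with the component as a covariate. In lung fibroblasts the count, 0 as reported, was 2 by DESeq2, 2 in the 2-group fit and 2 with the component as a covariate, each time Spi1 and Irf8. In mammary fibroblasts it was 3 as reported, 0 in the 2-group fit and 1 without the libraries that stand apart. The replicate block gave 3 called members in fat macrophages against day 0 (Bhlhe40 lost), and 2 in mammary fibroblasts, also 2 when restricted to mammary libraries, where Spi1 passed (adjusted p = 0.0416) and Irf8 was below the filter; it changed no other call. The estimated fibroblast share ran from 0.454% by the lowest marker to 2.82% by the highest in fat, from 0.196% to 3.01% in lung and from 0.339% to 2.37% in mammary macrophages, with a mean over markers of 0.991% in mammary. Why these values moved was not tested, beyond the smaller number of libraries in the 2-group and reduced fits. Depth limits Bhlhe41 in macrophages and Spi1 and Irf8 in fibroblast mono-cultures, where libraries held few counts or none.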

Other observations

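Other transcription factors of the myeloid lineage moved beside the 8 genes. Of 34 tested, 13 were higher and 6 lower after fat, 14 higher and 7 lower after lung and 11 higher and 6 lower after mammary co-culture (10 higher and 7 lower without the mammary libraries that stand apart). Stat3, the mediator of IL-6 family and IL-10 signals, averaged 108, 122 and 109 CPM in fat, lung and mammary co-culture, against 51.2 CPM at day 0, and Rxra, the partner of many nuclear receptors, averaged 131, 128 and 151 CPM, against 65.4 CPM. Id3, an inhibitor of helix-loop-helix factors, fell to 85.4 CPM in lung and 44.3 CPM in mammary co-culture, against 191 CPM at day 0, and its fat level of 97.6 CPM exceeded the mammary level (log2 1.14, adjusted p = 8.16e-05 by edgeR). Nr1h3, which encodes the oxysterol receptor LXRα, fell to 22.4 CPM in fat co-culture, against 49.7 CPM.

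Of the 34 factors, 2 were higher and 2 lower in fat than in lung, where 2.06% and 1.04% of all genes were called. Fat against mammary co-culture gave 8 higher and 1 lower (6 and 1 without the mammary libraries that stand apart). The shares of all genes there were 1.67% and 1.05%. Lung against mammary co-culture gave 6 higher and 2 lower, where 2.45% and 3.15% of all genes were called. Runx3 averaged 18.9 CPM in fat and 7.90 CPM in lung (log2 1.26, adjusted p = 0.0109), and lung was below mammary co-culture (25.3 CPM, log2 -1.68, adjusted p = 0.000579). Tfec, of the MITF family, was lower in fat (8.86 CPM) than in lung (19.3 CPM, adjusted p = 0.000367) and mammary co-culture (16.02 CPM, adjusted p = 0.00788). Egr1, an immediate-early factor, was higher in fat (178 CPM) than in mammary co-culture (40.003 CPM, log2 2.15, adjusted p = 0.00118). Among ETS relatives of PU.1, Ets2 averaged 182, 179 and 155 CPM in fat, lung and mammary co-culture, against 69.7 CPM at day 0.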
